A study of Mus musculus with 18 samples.

Results

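The Wnt genes described here are 46 of the 21011 genes in a table of read counts from mouse dorsal skin. They are the rows whose symbols begin with Wnt, Fzd, Sfrp or Dkk and then a digit (or the letter l, as in Dkkl1), together with Lef1, Tcf7, Tcf7l2, Axin2, Ctnnb1, Lgr4, Nkd1, Nkd2, Notum, Wif1, Lrp5, Lrp6, Rnf43 and Znrf3. By role they are 17 secreted Wnt ligands, 10 Frizzled receptors, 5 co-receptors and receptor-turnover proteins, 7 secreted inhibitors and their relatives, 4 nuclear effectors and 3 feedback targets. All but 1, Wnt8a, had enough reads to be tested, which left 45 among the 16517 genes tested.

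Wnt ligands bind a Frizzled receptor and the co-receptor Lrp5 or Lrp6, which lets β-catenin (Ctnnb1) escape destruction, enter the nucleus and join Tcf/Lef proteins at target genes such as Axin2. R-spondins acting through Lgr receptors keep Frizzled at the surface by restraining the ubiquitin ligases Rnf43 and Znrf3, while Dkk, Sfrp, Wif1 and Notum act against the ligand or its co-receptor outside the cell. In skin the pathway is known for its part in hair follicle formation and in the renewal of basal epidermis, and Notch signalling, of which a component was deleted in the mutants, acts in the same epithelium through the DNA-binding protein Rbpj.

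RNA was measured in 18 mice, each treated with tamoxifen at 8 weeks of age and sampled 10 weeks later, from dorsal skin labelled telogen (resting hair cycle) and separated from dermis. KR mice (n = 4) lost Rbpj through K14-CreERT, a driver of basal keratinocytes of epidermis and follicle. LR mice (n = 3) lost Rbpj through Lrig1-CreERT2, a driver named for a gene of upper follicle stem cells. KN1 mice (n = 4) lost Notch1 through the K14 driver. Each mutant has controls of its own batch and litter, namely KR controls 4 and 6, LR controls 2, 3 and 5, and KN1 controls 1 and 7, and the alleles that the controls carried are not given in the labels. KR control 4 and KN1 control 1 each merge runs of 1 mouse made on 2 occasions, and KR control 6, LR control 5 and KN1 control 7 carry a second name like that of the repeat runs, here called second-named. No mutant library has such a name, so in KR and KN1 genotype and this library feature cannot be told apart.

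Total counts ran from 8076316 to 21216169 per library. Notch1 was at 105, 156, 81.9 and 107 CPM (counts scaled to library size) in the KN1 mice and at 251 and 172 CPM in the KN1 controls, and it fell by 0.91 on the log2 scale (adjusted p = 0.0251, edgeR quasi-likelihood F test). Rbpj averaged 43.1 ± 2.30 CPM in KR mice and 59.5 ± 1.89 CPM in KR controls (SD), with adjusted p = 0.135, and 33.5 ± 4.07 CPM in LR mice and 53.0 ± 17.4 CPM in LR controls, with adjusted p = 0.0659. Every KR and LR mouse lay below every control of its batch for Rbpj, but neither difference passed the threshold of an adjusted p under 0.05, by Benjamini-Hochberg over all genes tested. Rbpj was also at 36.8, 30.9, 34.5 and 34.6 CPM in KN1 mice, below the 42.6 and 44.2 CPM of KN1 controls (-0.34 ± 0.18 on the log2 scale, adjusted p = 0.31). RNA of all cells was pooled in each library, so a smaller number of cells of a type and less RNA per cell cannot be told apart. The epidermal label was borne out by its keratins, with Krt5 between 11180 and 18640 CPM over all mice, while dermal fibroblast markers summed to at most 60.1 CPM and endothelial markers to at most 13.4 CPM in any mouse.

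Per kilobase of exon, the Wnt genes of the 7 control mice spanned a wide range of levels. β-catenin itself was highest, at 107 ± 17.2 CPM per kb (SD, n = 7). Among the ligands Wnt4 (57.7 ± 22.6 CPM per kb), Wnt10a (50.1 ± 15.5), Wnt3 (39.3 ± 7.21) and Wnt7b (36.1 ± 7.98) came first, and the spreads of neighbours in this order overlap. Wnt6 followed at 9.36 ± 3.81 CPM per kb and Wnt3a at 6.53 ± 2.72, while Wnt9a, Wnt2, Wnt8a, Wnt2b and Wnt9b were each below 0.5 CPM per kb on average. Among the receptors Fzd10 (35.1 ± 6.58 CPM per kb) and Fzd7 (31.2 ± 13.8) were highest and Fzd4 lowest (0.232 ± 0.126), and of the nuclear partners of β-catenin Tcf7 (6.35 ± 1.15) and Tcf7l2 (3.29 ± 0.787) stood above Lef1 (0.451 ± 0.181).

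**Figure D1:**
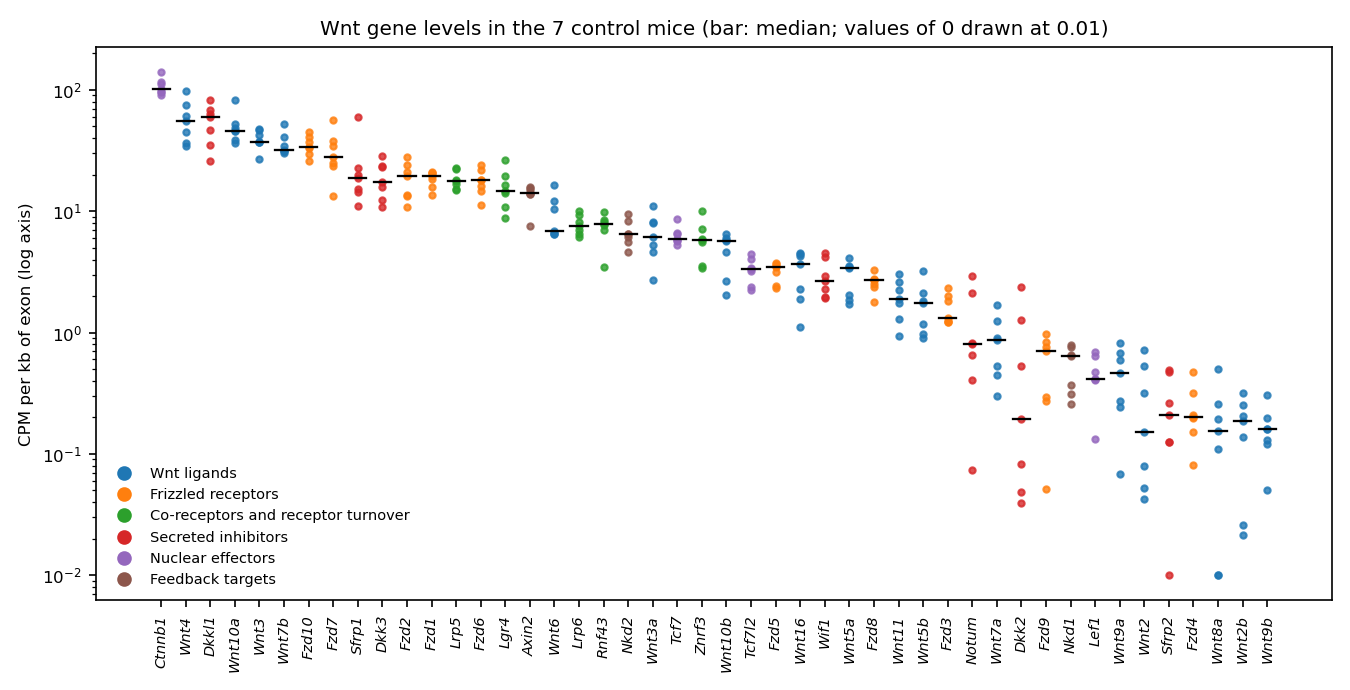
Levels of the 46 Wnt genes in CPM per kilobase of exon (vertical log axis) in each of the 7 control mice (points, coloured by role), with the median as a bar and genes ordered by mean level. Ctnnb1 lies at the left, followed by Wnt4, Dkkl1, Wnt10a, Wnt3 and Wnt7b, and the ligands Wnt2, Wnt8a, Wnt2b and Wnt9b lie toward the right end.

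The question put to these genes was whether their RNA differed after loss of Rbpj or Notch1. Few Wnt genes passed the test. In KR mice 1 of 45 rose (the ligand Wnt2) and none fell, where 1.6% of all genes tested passed (0.696% rose and 0.902% fell). In LR mice 1 of 45 rose (the ligand Wnt10a) and none fell, where 1.12% of all genes passed (0.872% rose and 0.248% fell). In KN1 mice 0 of 45 passed by edgeR and 0 by DESeq2, where edgeR called 1.97% of all genes (0.86% rose and 1.11% fell), and 7 Wnt genes had an unadjusted p under 0.05. DESeq2 called 3 Wnt genes in KR and 2 in LR, and of all genes with an adjusted p it called 7.04% in KR, 3.36% in LR and 4.81% in KN1. The number with an unadjusted p under 0.05 was also 7 in KR and 7 in LR, or 15.6% of the Wnt genes tested, against 22.9% of all genes in KR, 15.5% in LR and 18.5% in KN1.

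The median log2 fold change over the 45 Wnt genes was 0.11 in KR, 0.06 in LR and 0.15 in KN1, against medians of 0.04, -0.0041 and 0.02 over all genes. All mutant mice lay beyond all controls of their batch for 17 of 45 Wnt genes in KR (37.8%, against 38.4% of all genes), 8 in LR (17.8%, against 19.6%) and 6 in KN1 (13.3%, against 28.1%). In KR 11 lay above and 6 below, where 19% and 19.5% of all genes did. In LR 3 lay above and 5 below (10.3% and 9.29% of all genes), and in KN1 5 lay above and 1 below (13.8% and 14.3%). No Wnt gene was apart in the same direction in all 3 mutants, which 1.51% of all genes were in the upward and 2.25% in the downward direction. When the changes of 2 mutants were set against each other in the same fit, 0 Wnt genes passed by edgeR or by DESeq2 for KR against LR (0.00605% of all genes by edgeR and 0.0191% by DESeq2), KR against KN1 (0% and 0.248%) or LR against KN1 (0.00605% and 0.438%), and 2, 4 and 3 had an unadjusted p under 0.05. No change below is therefore shown to belong to 1 mutant alone.

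**Figure D2:**
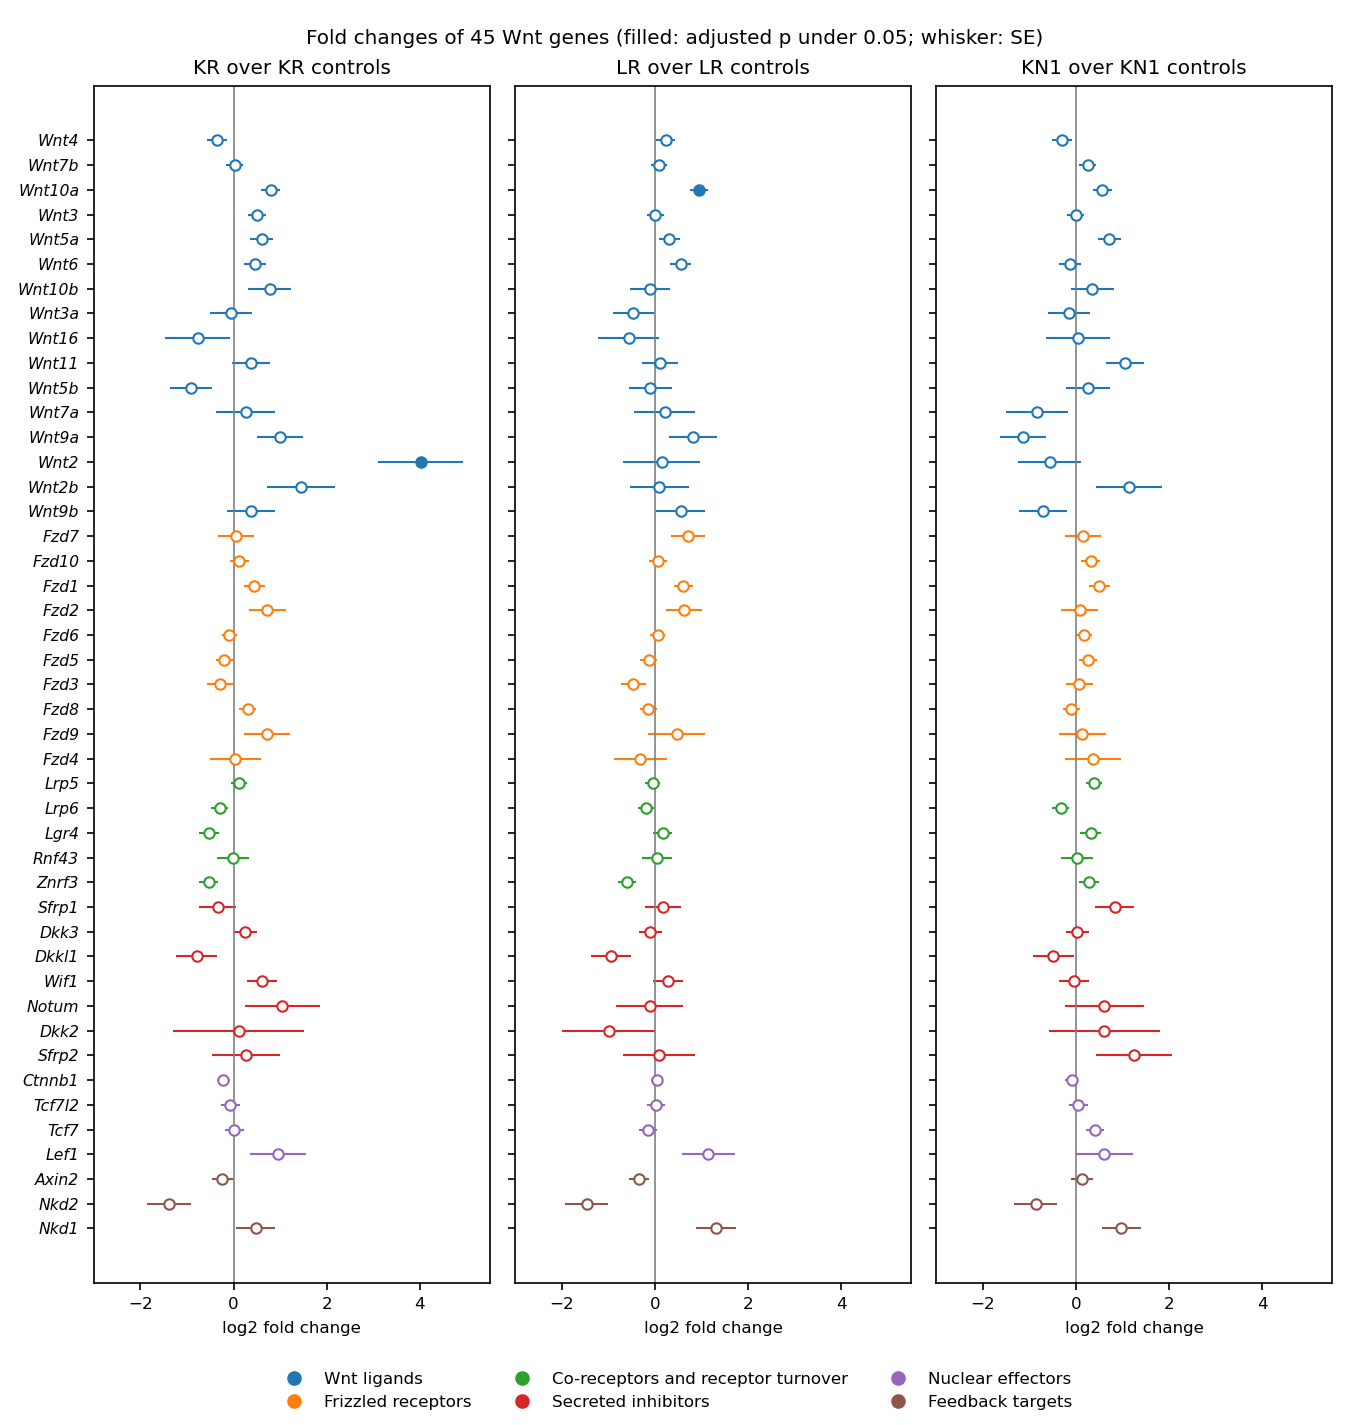
Log2 fold changes of the 45 tested Wnt genes (horizontal axis) in KR, LR and KN1 mice over their own controls, with genes grouped by role down the page, whiskers of 1 standard error and filled points for an adjusted p under 0.05. The filled points are Wnt2 in KR and Wnt10a in LR.

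Wnt10a, a ligand that signals through β-catenin and is known for its role in hair, teeth and sweat glands, had the higher level of the 2 ligands that passed. It lies on chromosome 1 at 74791516 to 74804179 on the plus strand (GRCm38). In LR mice Wnt10a was at 217, 188 and 229 CPM, against 120.0, 114 and 94.6 CPM in LR controls. In KR mice Wnt10a was at 178, 187, 156 and 187 CPM, against 114 and 90.2 CPM in KR controls. In KN1 mice Wnt10a was at 188, 225, 317 and 255 CPM, against 128 and 205 CPM in KN1 controls. All mutant mice lay above all controls of their batch in LR and in KR, and in KN1 the lowest mutant lay below the second-named control.

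The log2 fold change of Wnt10a was 0.95 ± 0.19 in LR (SE; adjusted p = 0.0178, edgeR), 0.79 ± 0.21 in KR (adjusted p = 0.0565) and 0.56 ± 0.21 in KN1 (adjusted p = 0.155). The 95% interval was 0.36 to 1.23 in KR and 0.13 to 0.99 in KN1, and both contain the LR value. The LR call was lost when LR control 3 (adjusted p = 0.0744), LR control 5 (0.0775), LR 1 (0.0566) or LR 3 (0.101) was left out, with log2 fold changes from 0.85 to 1.03 over all omissions of 1 mouse. The KR difference passed with DESeq2 (adjusted p = 0.0138) and in a fit of the KR cohort alone (0.0323). It did not pass against all 7 controls (0.52, adjusted p = 0.0989) or with the second-named share as a covariate (0.70, 0.557). Without the second-named controls, which leaves 1 KR control, it was 0.61. The KN1 value was 0.26 without KN1 control 1 and 0.94 without KN1 control 7, each leaving 1 KN1 control, and it passed against all 7 controls (1.00, adjusted p = 0.00835).

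Several marker lists had summed levels that did not overlap between the same LR groups, although none of their genes passed the test. Basal keratinocyte markers summed to 26820 to 28790 CPM in LR mice and 21690 to 23970 CPM in LR controls, with 0 of 8 passing the test. Most of that sum was Krt5 and Krt14, with Krt5 at 14170, 15420 and 14820 CPM in LR mice and 11710, 11180 and 12200 CPM in LR controls. Itga6 of the same list was at 369.2, 437 and 380.2 CPM in LR mice and 391.4, 473.8 and 668.9 CPM in LR controls. Cell cycle markers summed to 257 to 400.3 CPM in LR mice and 160.2 to 229 CPM in LR controls, bulge stem cell markers to 6646 to 7255 CPM and 7411 to 9092 CPM, and epidermal T cell markers to 64.6 to 132 CPM and 134 to 201 CPM, each with 0 genes called and no listed gene at 0 in any mouse. The bulge sum was mostly Krt15, at 5869, 6379 and 5464 CPM in LR mice and 7473, 6651 and 7935 CPM in LR controls, whereas the median log2 fold change of that list was 0.36 and its member Nfatc1 was at 171, 139 and 249.6 CPM in LR mice and 101.4, 122.5 and 134 CPM in LR controls. Median log2 fold changes of the others in LR were 0.11 for basal, 0.72 for cell cycle and -0.85 for T cell markers. Their part in the Wnt10a result was not tested.

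Wnt6, the neighbour of Wnt10a, lies on the same strand of chromosome 1 at 74771892 to 74785322, and 6193 bases separate the 2 genes. It was looked at after its values were seen. Wnt6 was at 21.7, 20.0 and 23.2 CPM in LR mice and at 15.1, 14.6 and 14.3 CPM in LR controls, so these groups did not overlap. None of its differences passed, with log2 fold changes of 0.56 ± 0.23 for LR (adjusted p = 0.236, edgeR), 0.47 ± 0.24 for KR (0.246) and -0.13 ± 0.23 for KN1 (0.809). The other adjacent pairs among the ligands studied here lie on chromosome 11. Of these, Wnt9b and Wnt3 (24328 bases apart) had log2 fold changes of 0.36 and 0.50 in KR, and Wnt3a and Wnt9a (16175 bases apart) had -0.06 and 1.00, and none passed the test.

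Wnt2, a ligand described in lung and vascular development, showed the largest fold change of the Wnt genes in KR, at a low level. It was at 1.66, 3.37, 1.13 and 2.86 CPM in KR mice and at 0.0966 and 0.18 CPM in KR controls, which is 88 reads over the KR mice and 4 reads over the KR controls. The groups were far apart within this cohort. The ratio of the summed reads, scaled to depth, was 18.2 with an exact 95% interval of 6.87 to 68.3 that covers counting error only, and the fitted log2 fold change was 4.01 ± 0.91 (adjusted p = 0.0393, edgeR).

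In the other cohorts Wnt2 did not separate mutants and controls. It was at 1.24, 1.97, 0.138 and 0.46 CPM in KN1 mice and at 1.63 and 1.19 CPM in KN1 controls, and at 0.575, 0.172 and 0.646 CPM in LR mice and 0.118, 0.339 and 0.715 CPM in LR controls. Both KN1 controls overlapped the KR mice. Against all 7 controls together the log2 fold change of Wnt2 in KR was 1.83 (adjusted p = 0.0936). The KR call was also lost without KR 1 (adjusted p = 0.0644), KR 3 (0.116) or KR 5 (0.0971), and with the second-named share as a covariate (0.237). Leaving out KR control 4, KR control 6 or all second-named controls leaves 1 KR control, so no test result is given for these fits. Without the second-named controls the log2 fold change was 4.37, and the KR control that stays, KR control 4, itself merges runs of 2 occasions. With the second-named share as a covariate the log2 fold change was 4.75.

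Some marker lists did not overlap between the KR groups. Langerhans cell markers summed to 1625 to 1902 CPM in KR mice and 669 to 1264 CPM in KR controls (1 of 7 rose), and epidermal T cell markers to 160.5 to 278 CPM and 77.8 to 158 CPM (0 of 7 called). The Langerhans sum was mostly Cd74, H2-Ab1 and H2-Eb1, and the median log2 fold change of that list in KR was 0.80. Cd207 of the same list overlapped, at 25.9, 24.8, 31.1 and 23.7 CPM in KR mice and 30.7 and 10 CPM in KR controls. The T cell sum followed Thy1, at 105, 109, 99.7 and 213 CPM in KR mice and 92.0 and 25.8 CPM in KR controls. Cd3g, a chain of the T cell receptor complex, was at 10.3, 12.0, 13.9 and 13.9 CPM in KR mice and 15.2 and 13.8 CPM in KR controls. Cd3e, another chain, was at 9.74, 12.7, 11.4 and 13.6 CPM in KR mice and 11.7 and 6.31 CPM in KR controls. The median log2 fold change of the T cell list in KR was 0.27. Basal keratinocyte markers summed to 28730 to 34500 CPM in KR mice and 22970 to 25010 CPM in KR controls (1 of 8 rose), and suprabasal markers to 9639 to 22030 CPM and 25460 to 27280 CPM (1 of 9 fell). The basal sum was mostly Krt5 and Krt14. Krt14 was at 10270, 11370, 8411 and 11240 CPM in KR mice and 5989 and 5674 CPM in KR controls. Itga6 and Itgb1 of the same list went the other way. Itga6 was at 338.5, 365, 477.3 and 350 CPM in KR mice and 548.2 and 496.1 CPM in KR controls. The median log2 fold change of the basal list in KR was 0.18. No gene of these lists was at 0 in any mouse, and their part in the Wnt2 result was not tested. Endothelial markers summed to 4.39 to 13.4 CPM in KR mice and 3.62 to 5.59 CPM in KR controls, with Kdr and Tek at 0 in KR 1.

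The Wnt2 promoter is shown because it belongs to the ligand that changed most. It is RefSeq sequence of GRCm38.p6, chr6:18030396-18030695, minus strand, 300 bases around the transcription start, and Wnt10a is named only.
Wnt2: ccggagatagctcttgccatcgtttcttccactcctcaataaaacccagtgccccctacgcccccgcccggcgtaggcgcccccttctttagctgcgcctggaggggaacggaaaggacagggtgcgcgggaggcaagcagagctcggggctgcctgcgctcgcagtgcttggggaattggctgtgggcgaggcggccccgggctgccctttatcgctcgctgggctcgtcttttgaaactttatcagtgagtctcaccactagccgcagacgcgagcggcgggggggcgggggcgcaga
A script searched for CTTTGA, a core of Tcf/Lef motifs (reverse complement TCAAAG), and for TGGGAA, the Rbpj core (reverse complement TTCCCA), on both strands, and found neither in this window.

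**Figure D3:**
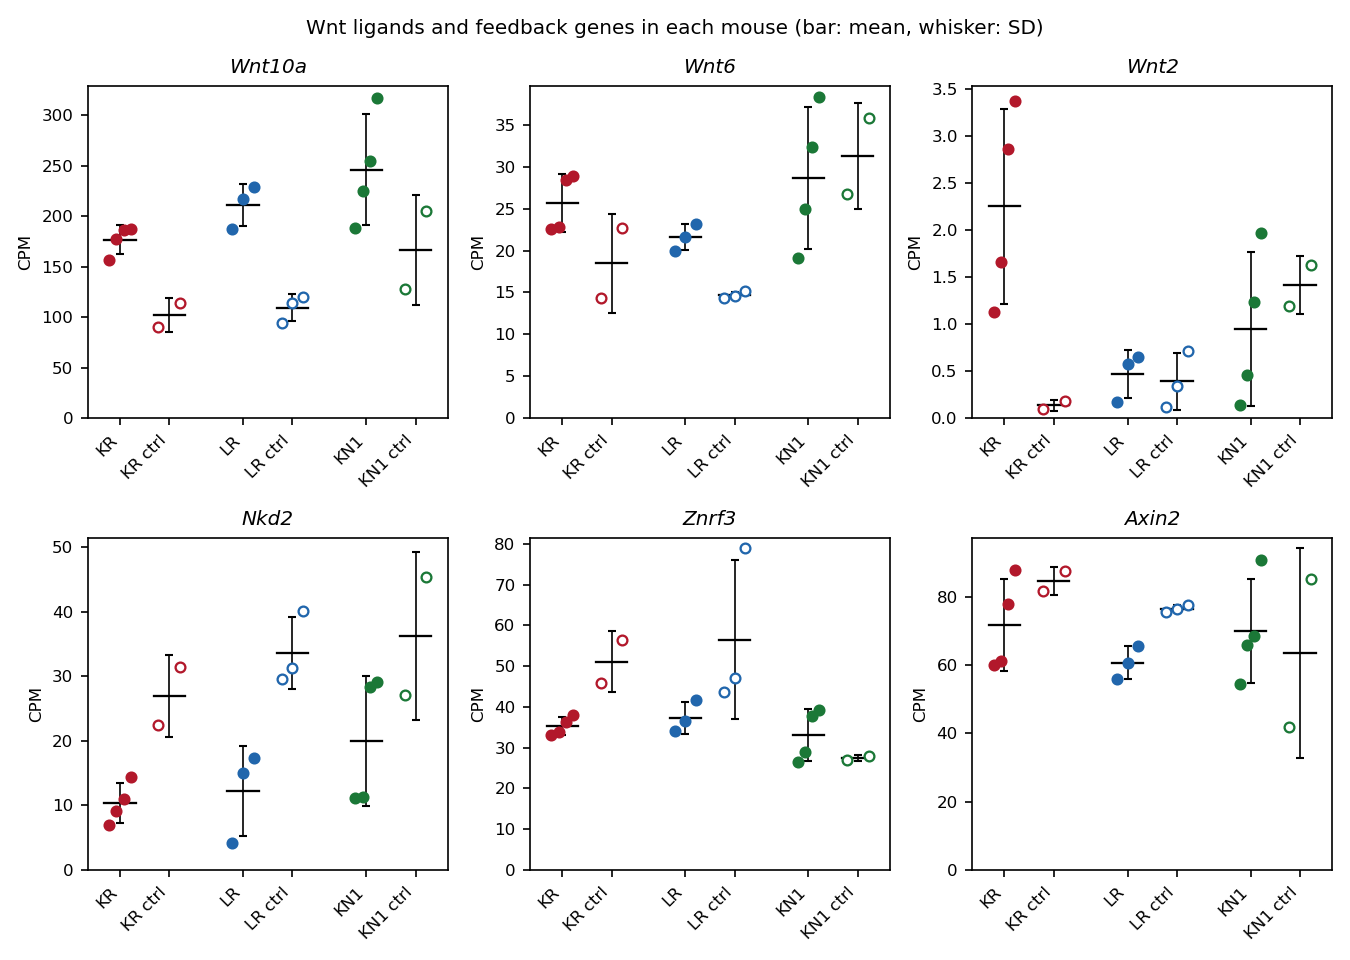
CPM (vertical axes, from 0) of Wnt10a, Wnt6, Wnt2, Nkd2, Znrf3 and Axin2 in each mouse of the 6 groups, mutants left of their controls, with the mean as a bar and the SD as a whisker. Wnt10a in all LR and KR mice lies above their controls, and Wnt2 in the KN1 controls (1.63 and 1.19 CPM) overlaps the KR mice.

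The remaining ligands did not pass in any mutant. Wnt3, a β-catenin ligand of epidermis, was at 164, 155, 166 and 158 CPM in KR mice and at 145 and 82.1 CPM in KR controls, a log2 fold change of 0.50 ± 0.19 (adjusted p = 0.141, edgeR). The KR mice lay close together above both controls, and the controls differed from each other by more than the KR mice did. In LR and KN1 the log2 fold change of Wnt3 was 0.01 and -0.01.

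Wnt5a, the main ligand of β-catenin-independent signalling, had log2 fold changes of 0.60 ± 0.24, 0.31 ± 0.22 and 0.71 ± 0.25 in KR, LR and KN1 (adjusted p = 0.155, 0.53 and 0.135, edgeR). In KN1 mice it was at 22.8, 30.1, 19.7 and 19.1 CPM, against 14.5 and 13.3 CPM in KN1 controls, with no overlap. Wnt11, another ligand of that kind, was at 10.8, 25.4, 15.8 and 16.3 CPM in KN1 mice and at 7.24 and 9.33 CPM in KN1 controls (1.05 ± 0.41, adjusted p = 0.186). Both were above all their controls in KN1, and neither was in LR.

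Wnt9a was the member whose mutant mice lay on opposite sides of their controls in 2 mutants. It was at 2.26, 2.18, 3.48 and 3.95 CPM in KR mice, against 1.98 and 0.901 CPM in KR controls. It was at 1.73, 0.926, 1.25 and 0.689 CPM in KN1 mice, against 2.75 and 2.28 CPM in KN1 controls. On the log2 scale it differed by 1.00 ± 0.50 in KR (adjusted p = 0.237, edgeR) and -1.14 ± 0.50 in KN1 (0.226), and the difference between these changes of 2.14 had an unadjusted p of 0.00704 but an adjusted p of 0.54 over all genes.

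The 2 most abundant remaining ligands, Wnt4 and Wnt7b, differed little between mutants and controls. Wnt4 averaged 189 ± 35.3 CPM in KR mice and 243 ± 18.6 CPM in KR controls (-0.36 ± 0.21), 190 ± 18.5 CPM in LR mice and 162 ± 22.2 CPM in LR controls (0.23 ± 0.20), and 296 ± 85.5 CPM in KN1 mice and 361 ± 67.5 CPM in KN1 controls (-0.29 ± 0.21). Wnt7b had log2 fold changes of 0.02 ± 0.19, 0.09 ± 0.18 and 0.25 ± 0.19 in KR, LR and KN1. The cohorts differed from each other in Wnt4: the KN1 controls had 314 and 409 CPM, while the LR controls had 153, 145 and 187 CPM.

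Wnt16 and Wnt3a, chosen after their values were seen, varied widely within both KN1 groups. Wnt16 was at 27.7, 14.8, 5.81 and 3.68 CPM in KN1 mice and at 19.7 and 4.88 CPM in KN1 controls. Wnt3a was at 27.3, 19.4, 16.2 and 6.43 CPM in KN1 mice and at 30.3 and 7.49 CPM in KN1 controls. KN1 1 and KN1 control 1 had the high values of their groups for both genes, and KN1 4 and KN1 control 7 the low ones. In LR both genes lay below all controls without passing. Wnt16 was at 12.3, 15.9 and 8.19 CPM in LR mice and at 15.96, 18.5 and 19.2 CPM in LR controls (-0.56 ± 0.65, adjusted p = 0.734, edgeR), and Wnt3a at 12.0, 11.8 and 8.40 CPM in LR mice and at 12.7, 14.5 and 17.1 CPM in LR controls (-0.46 ± 0.44, adjusted p = 0.668). The ubiquitin ligase gene Rnf43 was uneven in the KN1 cohort, at 56.6, 48.6, 22.6 and 21.1 CPM in KN1 mice and at 50.3 and 22.8 CPM in KN1 controls.

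None of the 10 Frizzled receptors passed in any mutant. Fzd1 came nearest, with log2 fold changes of 0.45 ± 0.22, 0.61 ± 0.21 and 0.51 ± 0.22 in KR, LR and KN1 (adjusted p = 0.234, 0.159 and 0.229, edgeR). It was at 119, 131, 115 and 109 CPM in KR mice and 85.9 and 88.1 CPM in KR controls, at 100.1, 85.4 and 157 CPM in LR mice and 86.1, 81.5 and 56.9 CPM in LR controls, and at 96.8, 116, 77.2 and 115 CPM in KN1 mice and 66.1 and 76.8 CPM in KN1 controls. The groups did not overlap in KR and KN1, and LR 2 lay below LR control 2. Fzd10 had log2 fold changes of 0.12, 0.07 and 0.32 and Fzd7 of 0.05, 0.72 and 0.15 in KR, LR and KN1, and for Fzd7 LR 3 stood at 314 CPM beside 174 and 156 CPM in the other LR mice.

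The co-receptors Lrp5 and Lrp6 did not pass either. Lrp5 had log2 fold changes of 0.11, -0.04 and 0.39 and Lrp6 of -0.30, -0.20 and -0.33 in KR, LR and KN1. Lgr4, the R-spondin receptor, averaged 82.7 ± 2.43 CPM in KR mice and 119 ± 50.4 CPM in KR controls (-0.52 ± 0.22, adjusted p = 0.17, edgeR), and the SD of the controls reflects values of 83.3 and 155 CPM. In LR and KN1 it was 0.17 and 0.32.

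Znrf3, a ligase that removes Frizzled from the surface and is itself induced by Wnt signalling, was lower in both Rbpj mutants without passing. In KR mice Znrf3 was at 36.2, 33.8, 38.0 and 33.1 CPM, against 56.4 and 45.8 CPM in KR controls. In LR mice it was at 36.4, 41.6 and 33.9 CPM, against 43.6, 47.0 and 79.0 CPM in LR controls. Every mutant mouse lay below every control in both cohorts. Log2 fold changes of Znrf3 were -0.54 ± 0.20 for KR (adjusted p = 0.141, edgeR), -0.60 ± 0.20 for LR (0.147) and 0.27 ± 0.21 for KN1 (0.514), and the difference of LR from KN1 had an adjusted p of 0.48.

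Of the feedback targets, Nkd2 had the largest differences in KR and LR, and Nkd1 in KN1. The Naked proteins Nkd1 and Nkd2 bind Dishevelled and restrain Wnt signalling, and Nkd1 and Axin2 are used as readouts of it. Nkd2 was at 9.02, 6.93, 14.3 and 10.95 CPM in KR mice and at 31.4 and 22.4 CPM in KR controls. It was at 15.1, 17.2 and 4.20 CPM in LR mice and at 31.3, 29.6 and 40.1 CPM in LR controls. It was at 28.3, 29.1, 11.1 and 11.3 CPM in KN1 mice and at 45.5 and 27.0 CPM in KN1 controls. The groups did not overlap in KR and LR, and in KN1 both the third and the fourth mouse lay far below the other two.

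Nkd2 thus differed, on the log2 scale, by -1.39 ± 0.47 in KR (adjusted p = 0.114, edgeR), -1.46 ± 0.46 in LR (0.14) and -0.87 ± 0.46 in KN1 (0.334). With DESeq2 Nkd2 passed in KR (adjusted p = 0.0371) and LR (0.0244) but not in KN1 (0.265). By edgeR it also passed in the KR cohort alone (adjusted p = 0.0332) and against all 7 controls in KR (0.0149) and LR (0.0359). It did not pass in the LR cohort alone (0.197), or with the second-named share as a covariate in KR (0.674) or LR (0.22). The KN1 value was -0.44 without KN1 control 1 and -1.19 without KN1 control 7. Nkd1 had the opposite sign, at 1.32 ± 0.43 in LR (adjusted p = 0.14), 0.47 ± 0.41 in KR and 0.97 ± 0.42 in KN1. It was at 2.88, 3.36 and 4.63 CPM in LR mice and at 1.18, 1.69 and 1.43 CPM in LR controls.

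Axin2, the most used readout of β-catenin signalling, gave small differences. It was at 88.1, 60.0, 77.9 and 61.3 CPM in KR mice and at 81.8 and 87.7 CPM in KR controls. It was at 60.7, 65.7 and 55.9 CPM in LR mice, against 75.7, 76.5 and 77.8 CPM in LR controls, and every LR mouse lay below every LR control. The log2 fold change of Axin2 was -0.24 in KR (95% interval -0.72 to 0.24), -0.33 in LR (-0.79 to 0.12) and 0.13 in KN1 (-0.36 to 0.62), with adjusted p = 0.549, 0.483 and 0.809 (edgeR). Each interval leaves out a doubling or a halving.

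Ctnnb1 had log2 fold changes of -0.22 ± 0.14, 0.05 ± 0.13 and -0.09 ± 0.14 in KR, LR and KN1, Tcf7 of 0.02, -0.15 and 0.41, and Tcf7l2 of -0.07, 0.02 and 0.05, and none passed. Lef1, a Tcf/Lef factor of hair matrix and follicle germ, was uneven within each mutant group. It was at 3.92, 8.52, 11.2 and 11.9 CPM in KR mice and 3.67 and 5.59 CPM in KR controls, at 3.45, 12.2 and 7.97 CPM in LR mice and 6.03, 3.62 and 1.16 CPM in LR controls, and at 3.22, 8.10, 3.32 and 8.62 CPM in KN1 mice and 3.57 and 4.12 CPM in KN1 controls. Mutants and controls overlapped in every cohort, and the log2 fold changes were 0.96 ± 0.60, 1.15 ± 0.57 and 0.61 ± 0.61 in KR, LR and KN1 (adjusted p = 0.345, 0.346 and 0.627, edgeR).

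Hair genes were also uneven from mouse to mouse. A list of 16 hair matrix and shaft genes summed to 53.2, 106, 341 and 482 CPM in KR mice and 88.7 and 229 CPM in KR controls, to 58.3, 252 and 44.9 CPM in LR mice and 219, 63.7 and 52.0 CPM in LR controls, and to 72.6, 476, 52.5 and 104 CPM in KN1 mice and 84.5 and 55.5 CPM in KN1 controls. None of the 16 genes passed in any mutant. Where the sum was low, most of it came from Msx2, Hoxc13, Dlx3, Foxn1 and Selenbp1, which had reads in every mouse. The sum thus separates mice with little hair keratin poorly. KR 3 (106 CPM) and KR control 4 (88.7 CPM) had similar sums, but Krt31 was at 7.43 and 0.386 CPM. Krt71, a keratin of the inner root sheath of growing hair, was at 0.475, 36.9, 116 and 194 CPM in KR mice and 0.531 and 136 CPM in KR controls, at 2.59, 198 and 1.51 CPM in LR mice and 128, 0.339 and 0.268 CPM in LR controls, and at 6.06, 200.1, 5.54 and 83.4 CPM in KN1 mice and 0.459 and 0.217 CPM in KN1 controls. Mice with high Krt71 occurred in every group but the KN1 controls, and those values go against a telogen label for these mice. The KR and LR mice with the highest hair sums, KR 5 and LR 2, were also highest of their groups in Lef1, and in KN1 the mouse with the highest hair sum, KN1 2, was second in Lef1. With the hair sum as a covariate, Wnt10a stayed called in LR (0.94, adjusted p = 0.0212, edgeR) and Wnt2 in KR (3.99, adjusted p = 0.0475). The KN1 call of Pygo2, described below, was lost (-0.52, adjusted p = 0.068). The covariate was chosen after seeing the data, and the part of hair growth in these results was not tested.

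**Figure D4:**
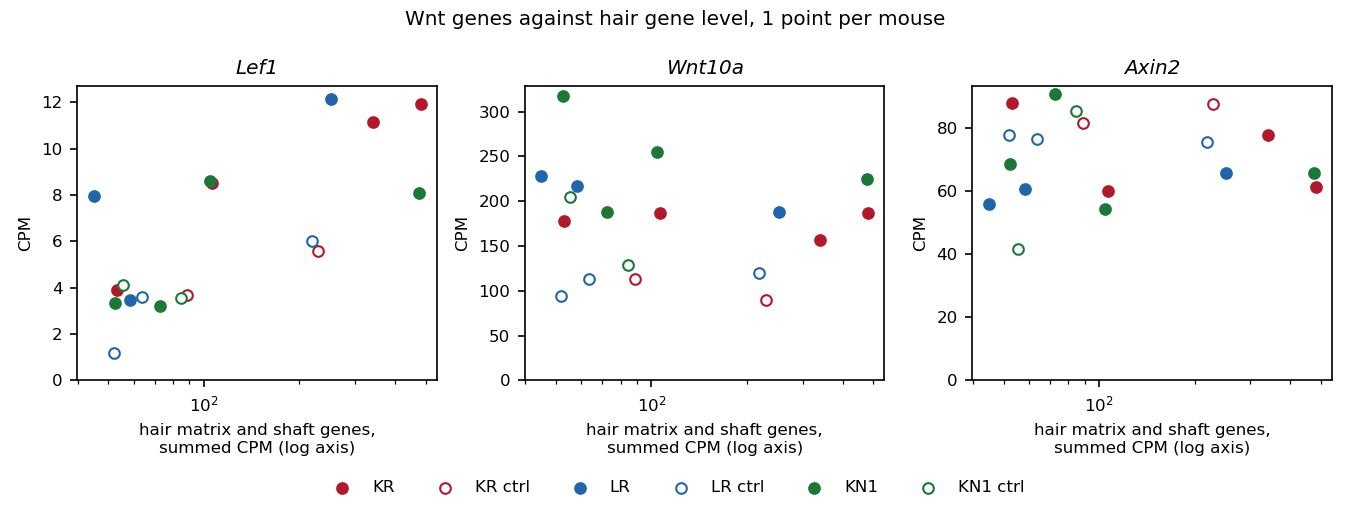
CPM of Lef1, Wnt10a and Axin2 (vertical axes) against the summed CPM of 16 hair matrix and shaft genes (horizontal log axis), 1 point per mouse, filled for mutants and open for controls. Lef1 is high in most mice with high hair sums, while Wnt10a in LR mice is high both in the mouse at 252 CPM and in those at 58.3 and 44.9 CPM of hair genes.

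The promoters of Nkd2 and of a downstream start of Lef1 are shown for the motifs they hold, in capitals. They are 300 bases of RefSeq GRCm38.p6 sequence each, Nkd2 from chr13:73847582-73847881 on the minus strand and Lef1 from chr3:131156044-131156343 on the plus strand.
Nkd2: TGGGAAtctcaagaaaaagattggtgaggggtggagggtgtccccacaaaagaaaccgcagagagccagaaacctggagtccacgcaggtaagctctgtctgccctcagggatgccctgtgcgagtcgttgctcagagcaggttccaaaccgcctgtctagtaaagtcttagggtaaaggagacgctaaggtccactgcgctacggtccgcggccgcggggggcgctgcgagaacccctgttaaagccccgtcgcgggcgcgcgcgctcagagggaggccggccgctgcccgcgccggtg
Lef1: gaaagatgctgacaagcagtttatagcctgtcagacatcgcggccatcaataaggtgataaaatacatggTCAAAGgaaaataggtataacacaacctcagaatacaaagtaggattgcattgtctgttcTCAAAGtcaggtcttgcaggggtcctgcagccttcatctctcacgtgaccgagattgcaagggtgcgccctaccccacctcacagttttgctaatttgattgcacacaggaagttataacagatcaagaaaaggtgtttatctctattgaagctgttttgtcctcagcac
The capitals mark 1 match to the Rbpj core in Nkd2, at the edge of the window, and 2 matches to the Tcf/Lef core, read on the reverse strand, in Lef1. The Lef1 promoters of upstream starts, not shown, begin at chr3:131110047, chr3:131110073 and chr3:131112541. Each holds 1 match to the Rbpj core and none to the Tcf/Lef core, and the first and second of them overlap. Of the 42 promoters found for 32 of the 46 Wnt genes, 7 (16.7%), from 5 genes, hold the Rbpj core and 4 (9.52%) the Tcf/Lef core. Of all 32851 promoters of this length, 8397 (25.6%) hold the Rbpj core and 5257 the Tcf/Lef core.

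The secreted inhibitors and relatives passed in no mutant. Dkkl1, a relative of the Dickkopf proteins, was at 55.7, 27.2, 49.3 and 17.8 CPM in KR mice and 74.0 and 55.8 CPM in KR controls, and had log2 fold changes of -0.80 ± 0.44, -0.95 ± 0.43 and -0.48 ± 0.44 in KR, LR and KN1 (adjusted p = 0.288, 0.303 and 0.588, edgeR). Sfrp1, which binds Wnt ligands, was at 99.5, 231, 91.1 and 125 CPM in KN1 mice and at 66.9 and 86.6 CPM in KN1 controls (0.83 ± 0.42, adjusted p = 0.307), and had -0.34 in KR and 0.17 in LR. The KR controls were far apart for Sfrp1, at 98.6 and 263 CPM. Dkk3 had log2 fold changes of 0.25, -0.10 and 0.04 in KR, LR and KN1.

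Of 56 further pathway genes listed, 53 were in the table and 48 were tested. In KR 0 passed by edgeR (1.6% of all genes), 4 by DESeq2 (7.04% of all genes) and 12 had an unadjusted p under 0.05 (25%, against 22.9% of all genes). The DESeq2 counts for LR and KN1 are given below with their shares of all genes. In LR 1 rose, the co-repressor Tle1, where 1.12% of all genes passed (0.872% rose), and 9 had an unadjusted p under 0.05 (18.8%, against 15.5%). In KN1 1 fell, the β-catenin co-activator Pygo2, where 1.97% of all genes passed (1.11% fell), and 13 had an unadjusted p under 0.05 (27.1%, against 18.5%). The median log2 fold changes of the 48 genes were -0.03 in KR, -0.06 in LR and 0.20 in KN1.

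Tle1, a Groucho protein that binds Tcf factors, was at 83.5, 64.8 and 126 CPM in LR mice and at 42.4, 43.4 and 43.6 CPM in LR controls. It was at 52.1, 73.3, 56.9 and 60.6 CPM in KR mice and 46.9 and 42.3 CPM in KR controls, and at 51.4, 73.3, 48.9 and 56.8 CPM in KN1 mice and 45.7 and 43.8 CPM in KN1 controls. Every mutant mouse lay above every control of its batch. For Tle1 the log2 fold change was 1.08 ± 0.20 in LR (adjusted p = 0.0107, edgeR), 0.45 ± 0.21 in KR (0.22) and 0.36 ± 0.21 in KN1 (0.375). The LR call was lost without LR 3 (0.78, adjusted p = 0.0761), without LR control 3 (0.0575), without the second-named controls (0.0573) and in a fit of the LR cohort alone (0.111), while the log2 fold change stayed at 1.08 in the last 3 of these.

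Pygo2 was at 104, 104, 88.6 and 78.9 CPM in KN1 mice and at 133 and 136 CPM in KN1 controls, a log2 fold change of -0.52 ± 0.13 (adjusted p = 0.048, edgeR). The other 5 controls had between 64.1 and 91.3 CPM, and against all 7 controls the log2 fold change was -0.01 (adjusted p = 0.963). The call was lost under most omissions of 1 mouse, with adjusted p from 0.027 to 0.319. Epidermal T cell markers summed to 87.7 to 113 CPM in KN1 mice and 187 to 213 CPM in KN1 controls (3 of 7 fell). Langerhans cell markers summed to 1026 to 1265 CPM and 1514 to 2259 CPM (0 of 7 called). Melanocyte markers summed to 66.0 to 90.9 CPM and 45.5 to 51.1 CPM (1 of 6 rose). Mitf of the melanocyte list went the other way, between 15.23 and 17.32 CPM in KN1 mice and at 18.6 and 22.14 CPM in KN1 controls. Every other gene of that list was higher in all KN1 mice than in both KN1 controls. The part of these marker lists in the KN1 results was not tested.

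Of the 48 further pathway genes tested, 3 (Porcn, Tle1 and Csnk1e) lay above their own controls whichever mutant was taken. That is a larger share than the 1.51% of all genes with this pattern, and the excess was not tested. Only 1 lay below them each time, a pattern seen in 2.25% of all genes. That gene was Rspo3, an R-spondin, and it passed for no mutant. It was at 4.39, 3.27, 5.22 and 2.47 CPM in KR mice and 15.2 and 8.02 CPM in KR controls, at 6.42, 5.78 and 0.754 CPM in LR mice and 8.87, 15.6 and 17.4 CPM in LR controls, and at 13.0, 11.1, 6.64 and 5.97 CPM in KN1 mice and 19.0 and 13.9 CPM in KN1 controls. Its log2 fold changes were -1.61 ± 0.51 (KR, adjusted p = 0.098, edgeR), -1.68 ± 0.51 (LR, 0.127) and -0.85 ± 0.50 (KN1, 0.382).

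Porcn, the enzyme that attaches the lipid Wnt ligands need, was above all controls in all 3 mutants, with log2 fold changes of 1.1 ± 0.39, 1.35 ± 0.35 and 0.54 ± 0.39 in KR, LR and KN1 (adjusted p = 0.123, 0.0708 and 0.476, edgeR). LR 3 stood apart at 43.3 CPM, beside 17.1 and 14.1 CPM in the other LR mice and 12.2, 8.70 and 8.23 CPM in LR controls. Wls, the carrier that takes Wnt ligands to the cell surface, was at 143, 125, 141 and 139 CPM in KR mice and 165 and 192 CPM in KR controls (-0.38 ± 0.15, adjusted p = 0.155), and at 148, 138, 127 and 121 CPM in KN1 mice and 177 and 201 CPM in KN1 controls (-0.51 ± 0.15, adjusted p = 0.0924). Among intracellular and planar polarity genes, Csnk1e was above all controls in each mutant (0.41, 0.44 and 0.59 in KR, LR and KN1), Prickle2 had -0.84 ± 0.23 and Daam1 -0.72 ± 0.20 in KR (adjusted p = 0.0633 and 0.0671), Ptk7 had 0.45 ± 0.13 in LR (0.0875) and Dvl3 0.45 ± 0.13 in KN1 (0.0893).

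**Figure D5:**
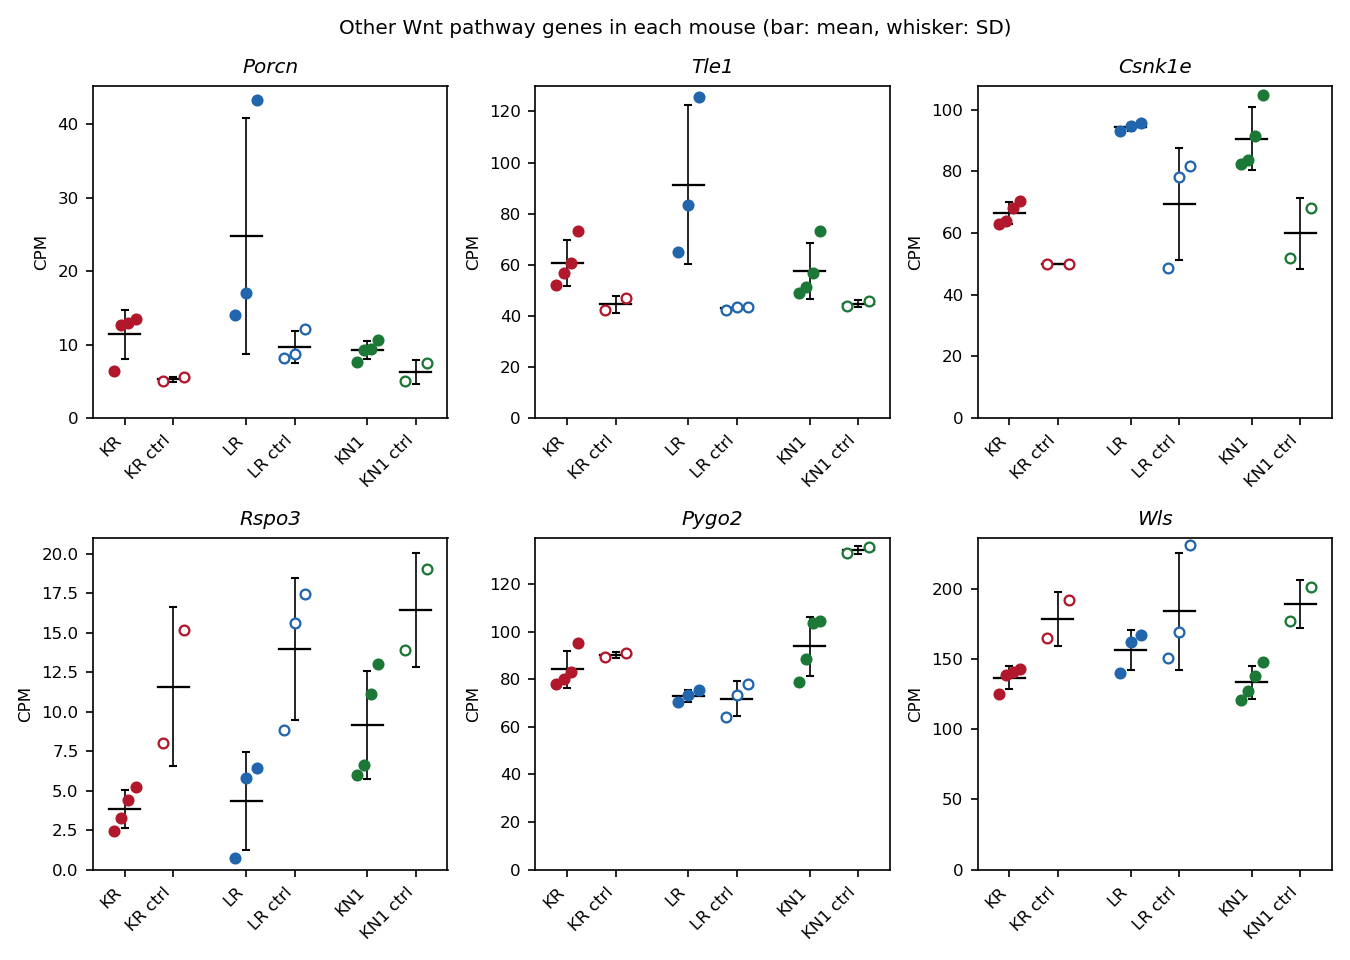
CPM (vertical axes, from 0) of Porcn, Tle1, Csnk1e, Rspo3, Pygo2 and Wls in each mouse of the 6 groups, mutants left of their controls, with the mean as a bar and the SD as a whisker. Porcn, Tle1 and Csnk1e lie higher and Rspo3 lower in all mutant mice than in the controls of their batch, and Pygo2 in the KN1 controls (133 and 136 CPM) lies above every other control.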

How the data were processed

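The deposited table holds raw read counts per gene, 1 column per mouse. The authors' tools were STAR, HTSeq and DESeq2 with mouse build mm10, per the submitters' processing notes; no source names their roles or says if counting was stranded, so reads of overlapping or antisense genes may be shared. Every row has a total of at least 18 counts.

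From these counts, edgeR 4.0.16 (R 4.3.3) was fitted over all 18 mice with TMM factors, filterByExpr (16517 genes kept), robust dispersion and 6 group means. A two-sided quasi-likelihood F test compared each mutant with the controls of its own batch, and contrasts of these gave differences between mutants, with Benjamini-Hochberg adjustment over all genes at 0.05. The biological coefficient of variation was 0.225, and groups of 2 controls borrow the spread of all mice. Errors of log2 fold changes are standard errors from the F statistic and intervals cover 95%. Each sample is a mouse of its own, so p-values reflect spread between mice. The fit was tested on simulated data.

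Coordinates and exon lengths are from GENCODE M21 (GRCm38). Alternatives were DESeq2 1.42.0, RLE factors, other filters (none, or mean CPM of at least 1), each cohort by itself, pooled controls, omission of each mouse or of the second-named controls, a covariate for the second-named share, a replicate block in LR and, chosen after seeing the data, a covariate for hair genes. Members, lists, tests and rules were chosen with earlier results of these data known. The rule for named genes took those called, the 3 of highest mean CPM per role, the 5 of smallest p per comparison, Axin2, Lef1 and Ctnnb1, and of the other pathway genes those called and the 3 of smallest p. Wnt6, Wnt9b, Wnt3a, Wnt16, Rnf43 and Wls, and the genes with the lowest levels, were named after their values were seen.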

Additional observations from a re-analysis of the deposited data

Results flagged for a closer look

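Groups of 4 mice were examined for a mouse far from the others, in 92 groups of Wnt genes and mutants, and 3 were found; chance flags about 1 in 20 groups. The gap of the extreme mouse, divided by the range of its group, was compared with Dixon's critical value for groups of 4. Tcf7l2, a Tcf/Lef factor, was at 27.8 CPM in KN1 4 and between 24.75 and 25.0 CPM in the other KN1 mice, a gap of 0.917 of the range. Wif1, an inhibitor that binds Wnt ligands, was at 15.2 CPM in KN1 4 and between 5.81 and 7.06 CPM in the other KN1 mice, a gap of 0.867. Wnt2b, a ligand near the detection limit, was at 1.84 CPM in KR 4 and between 0.712 and 0.792 CPM in the other KR mice, a gap of 0.929.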

How the results depend on the processing

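The single-gene calls rest on few mice. Omitting the second-named controls, or 1 control of KR or KN1, leaves that mutant with 1 control, so those fits hold no spread between its controls. Calls among the 45 Wnt genes were 1 in KR, 1 in LR and 0 in KN1, and 0 in the 3 differences between mutants, which were also 0 under every alternative run. In KR the count became 3 with DESeq2 (Wnt2, Wnt10a and Nkd2), 3 in the KR cohort alone, 4 with all 7 controls pooled, 0 without the second-named controls and 0 with the covariate for their share, and ran from 0 to 3 when 1 mouse was left out. In LR it became 2 with DESeq2, 2 with pooled controls, and ran from 0 to 1 when 1 mouse was left out. In KN1 it became 4 with pooled controls. Over all genes, edgeR called 1.6% in KR, 1.12% in LR and 1.97% in KN1, DESeq2 called 7.04%, 3.36% and 4.81%, fits of each cohort alone 4.36%, 0.437% and 0.65%, pooled controls 5.03%, 6.53% and 11.6%, fits without the second-named controls 0.187%, 0.794% and 0.239%, the covariate for their share 0.0727%, 0.884% and 0.115%, and the hair covariate 1.17%, 1.09% and 1.43%, in the same order of mutants.

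Among the other pathway genes, KR had 0 calls but 4 with DESeq2, 2 in its own cohort, 3 with pooled controls, and 0 to 4 when 1 mouse was left out. LR had 1 but 5 with DESeq2, 0 in its own cohort, 5 with pooled controls, 0 without the second-named controls, 2 with the covariate for their share, and 0 to 2 when 1 mouse was left out. KN1 had 1 but 5 with DESeq2, 0 in its own cohort, 6 with pooled controls, 0 without the second-named controls, 0 with the covariate for their share, 0 with the hair covariate, and 0 to 3 when 1 mouse was left out. Other cohorts' mice enter these omissions through the shared estimate of spread. DESeq2 called 7.04%, 3.36% and 4.81% of all genes in KR, LR and KN1. The 5 it called in LR and the 5 in KN1, of 53 listed genes in the table, are larger shares than those of all genes.

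Among named genes 55 of 952 values changed sign under the other alternatives and 48 of 1836 when 1 mouse was left out. Among those whose difference was at least 1 standard error from 0, signs turned with all 7 controls pooled for Ctnnb1 in KR (0.011), Wnt4 in LR (-0.35) and KN1 (0.29), Wnt9a in LR (-0.014), and Dvl3 (-0.26), Lgr4 (-0.36) and Znrf3 (-0.49) in KN1. They turned with the covariate for the second-named share for Csnk1e in KR (-0.068) and Lef1 in KN1 (-0.18). When 1 mouse was left out, the log2 fold change in KN1 ranged from -0.62 to 0.024 for Lrp6 and from -0.022 to 0.57 for Wnt7b. None of these was called in the fit reported, and the cause was not tested.

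The replicate block could use numbers 2 and 3 of LR alone. Same-numbered LR mice and controls had correlations of -0.07 and -0.13 in their deviations from group means. Differently numbered ones had correlations from -0.24 to 0.27. With 3 mice per group these values cannot decide whether equal numbers mark pairs. With the block the count of Wnt genes called in LR was 0 (Wnt10a 0.83, adjusted p = 0.124), and Lrp6 had 0.057 in place of -0.20.

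Wnt2, Wnt2b and Wnt9b have few reads per library, and a change in them was detectable only if large. Wnt8a had too few reads to be tested.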
